A study of Mus musculus with 24 samples.

Results

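A set of 12 short RNAs cut from the 5′ end of tRNA-Glu(TTC), the glutamate tRNA whose anticodon is TTC, was followed in mouse liver. They were chosen as all fragments shorter than 30 nt whose name carries the code 86J8WP (tRNA-Glu(TTC)) or 87R8WP (tRNA-Glu(CTC)), and the rule found 12 of the 8456 tRNA-derived fragments (tRFs) in the count table. All 12 carried 86J8WP and had lengths of 18 to 29 nt, 1 sequence at each length. No name with 87R8WP was among the rows, so fragments of tRNA-Glu(CTC) are not analysed here. Small RNA was sequenced from 24 liver samples of C57Bl/6J mice, 8 in each of 3 groups. AM132 mice were obese after 11 weeks of high fat diet and received an intravenous LNA antisense oligonucleotide of 16 nt against miR-132. AM608 mice were obese on the same diet and received a control LNA oligonucleotide of 15 nt against miR-608, a primate miRNA. Both oligonucleotides were given at 3.3 mg/kg on 3 successive days, and livers were taken 7 days later. RCD mice were lean, ate regular chow and received no oligonucleotide. AM608 and RCD therefore differ in diet and in injection together, and no group was obese and uninjected. Samples are numbered in the labels and not assigned to animals, so a p-value here reflects the spread between samples, which may in part be technical.

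A tRNA-Glu carries glutamate to the ribosome and reads glutamate codons through its anticodon. Cleavage of a mature tRNA within the D arm or just before the anticodon leaves 5′ fragments, and those shorter than the half-molecules cut in the anticodon loop are called 5′ tRFs. Such fragments share their first bases and differ only in where the 3′ end lies, so members of one family are not independent molecules of separate origin.

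The fragments are written in lower case with their last 3 bases in capitals, because the 3′ end is the only feature that separates them. The 4 printed are those with the most counts, and each shorter member is the start of the longest one.
tRF-23-86J8WPMNY: tcccacatggtctagcggttAGG
tRF-26-86J8WPMN1EE: tcccacatggtctagcggttaggATT
tRF-27-86J8WPMN1E5: tcccacatggtctagcggttaggaTTC
tRF-29-86J8WPMN1EJ3: tcccacatggtctagcggttaggattCCT

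The table also linked these ends to their anticodon. A fragment of 30 nt with 89 counts began inside the 29-nt member, overlapped its last 17 bases exactly and ran on through TTC, shown in capitals. In all, 15 fragments of the table overlapped the 29-nt member in this way and covered TTC.
tRF-30-VH7P59N3Z6KP: tagcggttaggattcctggttTTCacccag

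A second family of 13 fragments, with the code 86V8WP, differed from the members by 1 base, C6T counted from 1 at the 5′ end. It was included after its values had been seen. The differing base is in capitals in the 29-nt fragments of both families.
tRF-29-86J8WPMN1EJ3: tcccaCatggtctagcggttaggattcct
tRF-29-86V8WPMN1EJ3: tcccaTatggtctagcggttaggattcct
RefSeq names 8 mouse tRNA-Glu(TTC) genes on 6 chromosomes, and the fragments were not matched to single genes.

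Across the 24 libraries the 12 members held 135195 counts, 16.2% of all tRF counts. Of all 2308 families of fragments that share their first 15 bases, this one had the most counts, and its 26-nt fragment, with 102254 counts, was the most abundant single tRF. The 86V8WP family held 7721 counts. The depth of the tRF table ran from 25849 to 80578 counts a library in AM132, from 29889 to 46567 in AM608 and from 20580 to 39077 in RCD, beside 5689143 to 8734721 miRNA counts. miR-122-5p, the hepatocyte miRNA, lay between 157437 and 281810 counts per 1000000 miRNA counts (CPM of miRNA) in all 24 libraries. A pair of libraries stood apart before any test. AM132 library 8 had the most tRF counts (80578), and the tRFs abundant enough to be tested held 48.4% of them, against 86.9 to 90.4% in each other library. RCD library 3 had the highest summed neuronal (1896 CPM), leukocyte (1342 CPM), erythroid (2244 CPM), mesenchymal (33809 CPM) and endothelial (57674 CPM) marker miRNAs and the lowest hepatocyte sum (351314 CPM). In bulk RNA, fewer cells of a type and less RNA per cell cannot be told apart.

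One length dominated the family. The 26-nt fragment held 75.6% of the members' counts, followed by the fragments of 27 nt (11.8%), 29 nt (5.97%), 23 nt (3.89%) and 22 nt (1.11%). The 3′ ends were not spread evenly around the main one. The 25-nt fragment, a single base shorter than the main one, had 49 counts in all (0.0362%) and had a count in 17 of the 24 libraries, where none in a library allows up to 3 counts. The 28-nt fragment held 0.292%, below both of its neighbours. The rest of the tRF table, with the members taken out, was thin at the same lengths. It held 32 sequences and 54 counts at 25 nt and 87 sequences and 602 counts at 28 nt, against 491 sequences and 17991 counts at 26 nt. What part the counting has in these gaps was not tested. The fragments of 24, 21, 20, 19 and 18 nt held 0.477%, 0.179%, 0.277%, 0.138% and 0.171%. At 26 nt the members made up 85.0% of all tRF counts of that length, at 29 nt 61.1%, at 27 nt 56.7%, at 25 nt 47.6%, at 28 nt 39.6% and at 23 nt 12.9%.

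The 86V8WP family had a similar order of lengths, with 79.3% of its counts at 26 nt, 8.44% at 27 nt, 6.48% at 29 nt and 3.04% at 23 nt. Its 25-nt fragment held 0.0259%. The 2 families share every base but one, and their lengths were read in the same libraries.

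**Figure D1:**
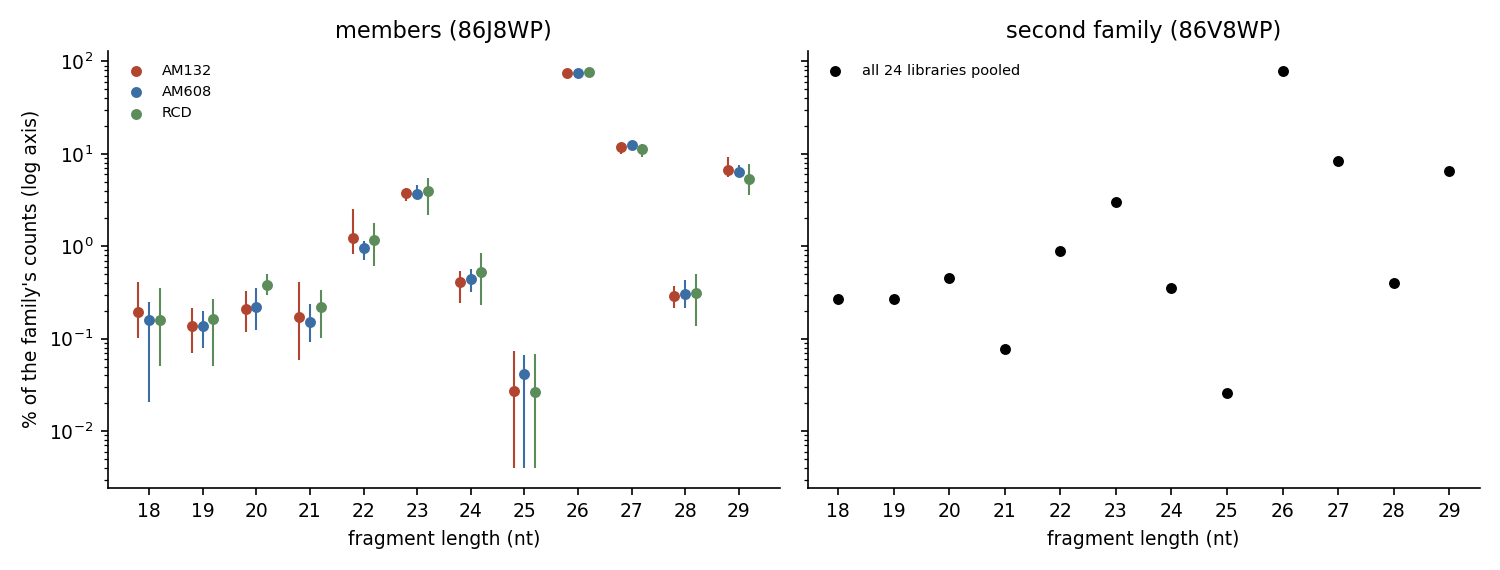
Percent of a family's counts at each fragment length (nt), on a log axis. For the 86J8WP members (left) points are means of 8 libraries per group, lines run from the lowest to the highest library, and a line whose lowest library is 0 is drawn to a fixed lower end; for 86V8WP (right) all 24 libraries are pooled. Both families peak at 26 nt, with 75.6% and 79.3% of their counts, and dip at 25 and 28 nt.

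The proportions of the lengths were close between groups. The 26-nt fragment made up 75.1 ± 1.57% of the members' counts in AM132, 75.2 ± 0.918% in AM608 and 76.6 ± 1.51% in RCD (SD, n = 8 each). Fragments of 27 to 29 nt made up 18.7 ± 1.88% in AM132, 19 ± 0.682% in AM608 and 16.8 ± 1.92% in RCD. Those of 18 to 25 nt made up 6.14 ± 0.799% in AM132, 5.80 ± 0.531% in AM608 and 6.59 ± 1.99% in RCD. The mean length was 26.11 ± 0.0578 nt in AM132, 26.12 ± 0.0221 nt in AM608 and 26.04 ± 0.112 nt in RCD. No comparison of the mean length passed a two-sided exact permutation test over all assignments of 8 against 8 libraries, adjusted by the Benjamini-Hochberg method over 6 tests of length and family ratio: adjusted p was 0.752 for AM132 against AM608, 0.186 for AM608 against RCD and 0.266 for AM132 against RCD. The mean length ran from 26.09 to 26.15 nt in AM608, against a wider 25.88 to 26.22 nt in RCD, where library 3 held the upper end. RCD library 3 decided the call in AM608 against RCD: without it the difference was 0.10 nt (exact permutation test, adjusted p = 0.00839). Without AM132 library 8 and RCD library 3 together the difference between AM132 and RCD was also 0.10 nt (exact permutation test, adjusted p = 0.0367). In both cases the other p-values that entered the adjustment were those from all libraries.

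The summed level of the members was lowest in AM132. Their share of all tRF counts was 12.6 ± 4.54% in AM132 livers (SD, n = 8; lowest 2.13%, median 13.8%, highest 16.2%), 18.4 ± 3.8% in AM608 livers (12.3%, 18.2% and 23.6%) and 20.1 ± 6.72% in RCD livers (6.73%, 20.5% and 27.8%). The 2.13% of AM132 library 8 had an exact 95% binomial interval of 2.04 to 2.24%, and the 6.73% of RCD library 3 one of 6.45 to 7.02%. These intervals cover counting error only, and the next libraries, at 11.1% in AM132 and 17.3% in RCD, lay above them. Every RCD library other than library 3 lay above every AM132 library.

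Each family was also tested as 1 row of a table of all families, with edgeR's quasi-likelihood test and Benjamini-Hochberg adjustment over all tested families. Here CPM, counts per 1000000, is scaled by TMM factors to the counts in tested families of the library. The 86J8WP family stood at 139625 ± 46713 CPM in AM132, 206163 ± 43368 CPM in AM608 and 243517 ± 91448 CPM in RCD (SD, n = 8 each). It fell in AM132 against RCD, to 57.3% of the RCD level (log2 fold change -0.80, SE 0.26, adjusted p = 0.0384). Of all tested families, 16.8% passed in this comparison and 5.61% were lower. The call was lost when any 1 of 5 libraries was left out: AM132 library 3 (adjusted p = 0.0506) or RCD libraries 2 (0.0858), 4 (0.0645), 7 (0.0658) and 8 (0.0848). Without both AM132 library 8 and RCD library 3 the log2 fold change was -0.78 (adjusted p = 0.000738).

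AM132 against AM608 addresses the anti-miR-132 oligonucleotide itself, since both groups were obese and injected. The family's log2 fold change was -0.56 (SE 0.26), a level of 67.7% of AM608, and it did not pass (unadjusted p = 0.0396, adjusted p = 0.215). In this comparison 0% of the tested families passed. AM608 against RCD, which sets obese injected livers against lean uninjected ones, gave -0.24 (SE 0.26, adjusted p = 0.615), where 3.74% of families passed and 1.4% were lower. The 3 comparisons share their libraries in pairs, so their values are not independent of each other.

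A scale outside the tRF table gave another order. Per 1000000 miRNA counts of the same library, the members had 590 ± 154 counts in AM132 (lowest 265, median 577, highest 774), 919 ± 210 in AM608 (670, 923 and 1281) and 856 ± 424 in RCD (277, 724 and 1489). On this scale the AM132 values lay within the RCD range except for library 8, and with miRNA counts as the library size the fit gave -0.36 for AM132 against RCD (adjusted p = 0.197) and 0.02 for AM608 against RCD (adjusted p = 0.967). The tRF counts as a percent of miRNA counts also differed in level, with medians of 0.480% in AM132, 0.538% in AM608 and 0.386% in RCD. That scaling shifted the median log2 fold change of all families in AM132 against RCD to 0.77, against 0.16 with TMM. The family lay 1.13 below that median with miRNA scaling (difference -1.13) and 0.97 below it with TMM (difference -0.97). The lower level in AM132 than in RCD is thus relative to other tRFs, and was not called relative to miRNAs.

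**Figure D2:**
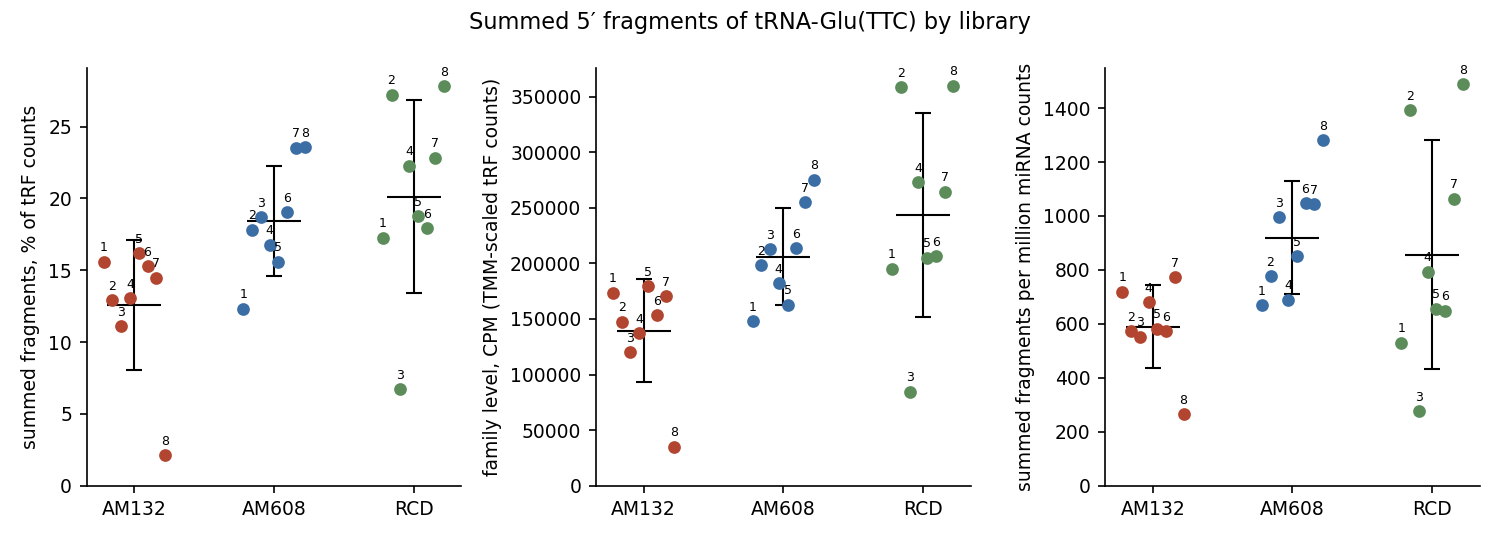
Summed 86J8WP members in each library, as percent of tRF counts (left), TMM-scaled CPM of the family (middle) and counts per 1000000 miRNA counts (right). Points are libraries with their number, horizontal lines are group means and bars 1 SD (n = 8 each); AM132 library 8 and RCD library 3 lie far below the rest of their groups, and on the left all AM132 libraries lie at or below 16.2%.

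Single fragments were tested in the same way over 295 tested tRFs. Of the 12 members, 11 passed the filter on low counts and the 25-nt fragment did not. Against RCD, 7 of the 11 fell in AM132 and none rose, where 9.15% of all tested tRFs were lower and 15.3% changed in either direction. Their log2 fold changes ran from -1.71 to -0.45 with a median of -0.95, against a median of 0.03 over all tested tRFs. The count was 4 without AM132 library 3 and also 4 without RCD library 2, each given without the share over all tested tRFs. The members share a parent tRNA and their libraries, so 7 calls are not 7 separate observations.

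The 26-nt fragment stood at 31832 (lowest), 111605 (median) and 137850 CPM (highest) in AM132, at 109522, 152984 and 191169 CPM in AM608 and at 66356, 177162 and 269643 CPM in RCD. Apart from RCD library 3, which had 66356 CPM, all RCD libraries lay above all AM132 libraries. It fell by 0.85 on the log2 scale in AM132 against RCD (SE 0.25, edgeR adjusted p = 0.0172), and this call held with each of the 24 libraries left out in turn. With miRNA counts as the library size it was lost, at -0.39 (edgeR adjusted p = 0.169).

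The largest change of any member was that of the 20-nt fragment, a minor end. It stood at 98.3, 260 and 517 CPM in AM132 (lowest, median and highest), 177, 401 and 806 CPM in AM608, and 348, 818 and 1556 CPM in RCD. Only RCD library 3, at 348 CPM, lay inside the AM132 range. It fell by 1.71 on the log2 scale in AM132 against RCD (SE 0.34, edgeR adjusted p = 0.000847) and passed in all 34 alternative settings. These CPM rest on few reads, with 4 to 15 counts per library in AM132 and 8 to 39 in RCD.

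The 21-nt fragment showed the same pattern at a similar depth. Its medians were 170 CPM in AM132, 305 CPM in AM608 and 552 CPM in RCD, and RCD library 3 was the lowest of all 24 libraries at 87 CPM. It fell by 1.53 in AM132 against RCD (SE 0.36, edgeR adjusted p = 0.00521) and passed in all 33 settings that tested it.

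The other 4 that fell in AM132 against RCD were the 24-nt fragment (log2 fold change -1.27, edgeR adjusted p = 0.0134), the 22-nt fragment (-1.03, 0.0244), the 28-nt fragment (-0.80, 0.0360) and the 23-nt fragment (-0.95, 0.0428). The 23-nt fragment, the most abundant of the short ends, stood at 1499, 5574 and 7321 CPM in AM132, 4872, 7417 and 9778 CPM in AM608, and 1870, 9646 and 18990 CPM in RCD. The AM132 and RCD ranges overlapped over most of the AM132 range, through RCD library 3 at 1870 CPM. Of the other RCD libraries, only library 1, at 5773 CPM, lay below the highest AM132 library. The call of the 23-nt fragment held in 15 of 34 alternative settings, against 26 for the 22-nt, 32 for the 24-nt and 20 for the 28-nt fragment. Leaving out 1 of 13 libraries ended the 23-nt call (AM132 libraries 2, 3, 4, 6, 7 and 8, AM608 library 4, and RCD libraries 2, 4, 5, 6, 7 and 8), with an edgeR adjusted p of at most 0.108. For the 28-nt call 9 did so (AM132 libraries 3, 7 and 8, AM608 library 4, and RCD libraries 1, 2, 4, 6 and 7; at most 0.0908), and for the 22-nt call 3 (AM132 library 3 and RCD libraries 2 and 8; at most 0.0852). The 24-nt call held with each library left out.

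The remaining 4 tested members did not pass in AM132 against RCD. The 27-nt fragment, second in abundance, averaged 16256 ± 5399 CPM in AM132, against 26911 ± 9765 CPM in RCD livers (log2 fold change -0.73, edgeR adjusted p = 0.0506). The 29-nt fragment, the longest, averaged 8977 ± 2779 CPM in AM132, against 12262 ± 4407 CPM in RCD livers (-0.45, edgeR adjusted p = 0.184). The fragments of 19 and 18 nt gave -1.11 (adjusted p = 0.0531) and -0.92 (adjusted p = 0.179). Without RCD library 3 the 27-nt and the 19-nt fragment both passed, each with an edgeR adjusted p of 0.0093. The 27-nt fragment also passed without AM132 library 2 (0.0462) or 5 (0.0357), and the 19-nt fragment without AM132 library 1 (0.0289) or 2 (0.0293). The longest member thus had the smallest difference and the 20-nt member the largest, and no test of one length against another was made beyond the mean length above.

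In AM132 against AM608, 0 of the 11 members passed (edgeR), where 5.08% of tested tRFs passed and 1.02% were lower. All 11 log2 fold changes lay between -0.73 and -0.42, with a median of -0.58 against -0.01 over all tested tRFs, and 6 had an unadjusted p below 0.05. The share of all tested tRFs below that unadjusted threshold was not counted, so the 6 have no background here. DESeq2 and limma voom also called 0 of them. The 26-nt fragment gave -0.58 (SE 0.24, adjusted p = 0.193), the 28-nt fragment -0.66 (SE 0.25, adjusted p = 0.141) and the 27-nt fragment -0.63 (SE 0.25, adjusted p = 0.153). None of these differences was called. At 27 and 28 nt they were near those in AM132 against RCD (-0.73 and -0.80). At 26 nt the difference was smaller than in AM132 against RCD (-0.85). Without the filter on low counts the 26-nt and 27-nt fragments passed (edgeR adjusted p = 0.00834 and 0.0209).

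In AM608 against RCD, again 0 of the 11 passed, where 4.41% of tested tRFs passed and 2.71% were lower. Here the values were spread more widely, from -0.98 at 20 nt (SE 0.32, edgeR adjusted p = 0.0701) and -0.86 at 21 nt (SE 0.34, adjusted p = 0.102) through -0.27 at 26 nt (SE 0.24, adjusted p = 0.504) to 0.07 at 29 nt (SE 0.23, adjusted p = 0.870). They did not follow length in order, with -0.34 at 18 nt, -0.53 at 19 nt, -0.41 at 23 nt and -0.54 at 24 nt, and no trend with length was tested. The 20- and 21-nt fragments were the 2 with an unadjusted p below 0.05, again without a count over all tested tRFs. Of the other tools, DESeq2 called 1 member and limma voom 0, and without AM132 library 8 and RCD library 3 there were 3 calls. Leaving out RCD library 3 alone gave 2 calls, at 20 and 21 nt, and AM132 library 8 alone gave 1, at 20 nt. The calls over all tested tRFs in these settings are not given here, so these counts have no background.

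**Figure D3:**
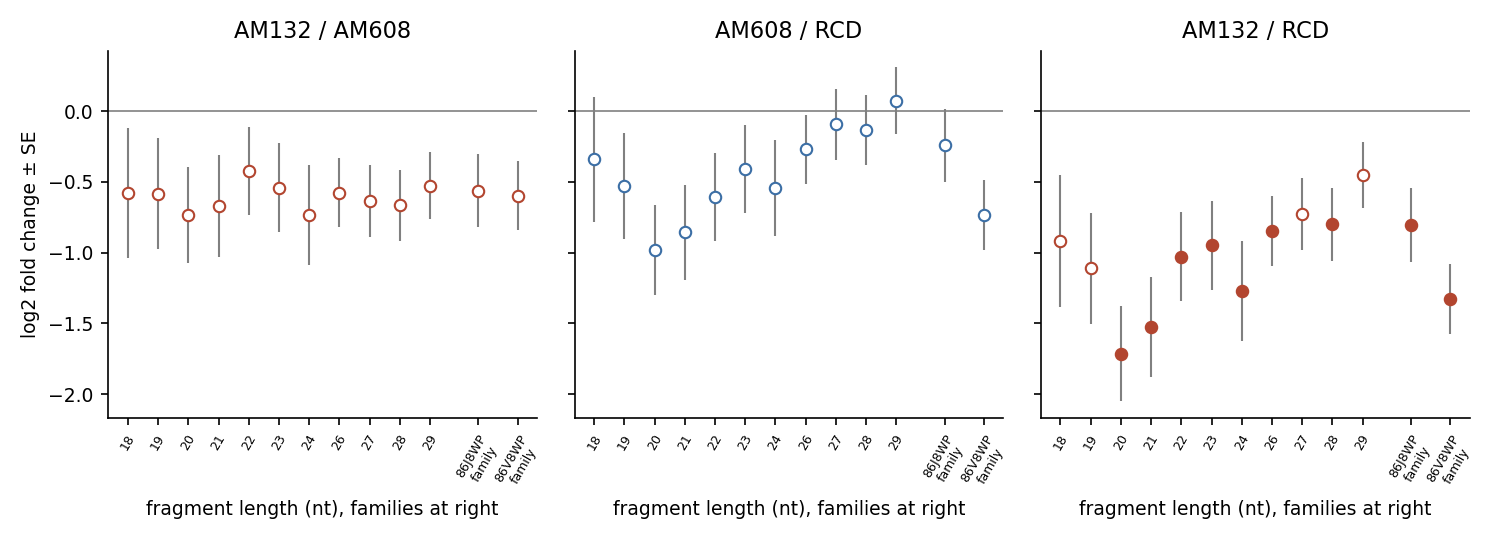
Log2 fold change with its SE for the 11 tested members by length (nt) and for both families, in AM132 over AM608, AM608 over RCD and AM132 over RCD. Filled points passed an edgeR adjusted p of 0.05; values lie near -0.6 at all lengths on the left, spread from -0.98 to 0.07 in the middle, and 7 members and both families are filled on the right.

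The 10 most abundant other families serve as a background of the same fit. They were taken by abundance and include 3′ fragments. The main fragments of 8R6Q46 and 8R6546, for example, are 18 nt long and end in CCA. In AM132 against RCD 1 of the 10, RPM830, was lower (log2 fold change -0.98, edgeR adjusted p = 0.00963) and none higher. The median log2 fold change of the 10 was -0.02. In AM132 against AM608 their median was -0.07 and in AM608 against RCD 0.14, and edgeR called 0 of the 10 in both. Less abundant families were called in both directions in AM132 against RCD. For example, PSQP4P (log2 fold change -0.67, edgeR adjusted p = 0.0133) and 897PVP (-0.97, 0.0243) were lower, and VBY9PY (1.24, 0.0124) was higher. Of all tested families, 16.8% were called there and 5.61% were lower, so the 10 do not stand for every family. No test set the members against any of these families.

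The 86V8WP family, 1 base apart, was lower in AM132 as well. It stood at 3325, 6205 and 11871 CPM in AM132 (lowest, median and highest), 6600, 9316 and 14906 CPM in AM608 and 12926, 18036 and 21058 CPM in RCD. No AM132 library reached the lowest RCD library. It fell to 39.8% of the RCD level in AM132 (log2 fold change -1.33, SE 0.25, edgeR adjusted p = 0.00156). The other comparisons did not pass, with -0.60 for AM132 against AM608 (SE 0.25, adjusted p = 0.165) and -0.73 for AM608 against RCD (SE 0.25, adjusted p = 0.0733). The value for AM608 against RCD lay near the threshold: it passed with DESeq2 (-0.79, adjusted p = 0.0307), with only these 2 groups in the edgeR fit (-0.73, adjusted p = 0.0248) and without AM132 library 8, which enters through the shared fit (-0.75, adjusted p = 0.0350).

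The ratio of the 2 families within a library needs no scaling between libraries. Its range was 10.6 to 35.3 in AM132 (median 20.1), 15.2 to 31.8 in AM608 livers (median 19.2) and 6.54 to 17.3 in RCD livers (median 14.5). The log2 ratio averaged 4.35 ± 0.610 in AM132, 4.35 ± 0.364 in AM608 and 3.73 ± 0.446 in RCD (SD, n = 8 each). It was higher in AM608 than in RCD by 0.62 (exact permutation test, p = 0.0028, adjusted p = 0.0168 over 6 tests). The same difference of 0.62 between AM132 and RCD did not pass (exact permutation test, p = 0.0375, adjusted p = 0.112). It passed without AM132 library 8 (0.76, adjusted p = 0.0163). AM132 and AM608 differed by less than 0.01 (exact permutation test, adjusted p = 0.996). RCD library 3 had the lowest ratio of all, 6.54, with 303 counts of 86V8WP.

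**Figure D4:**
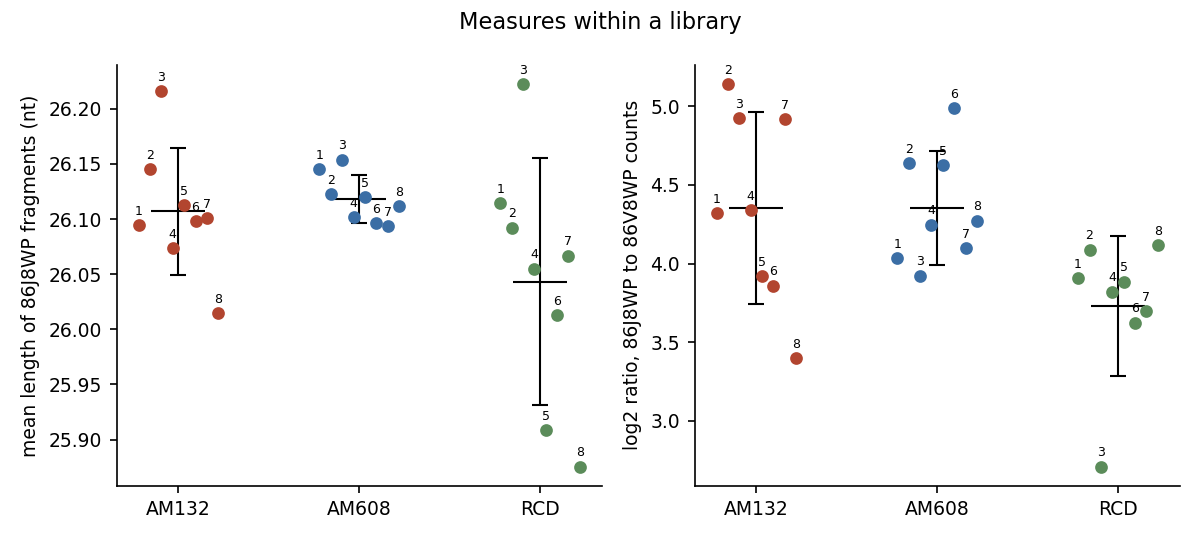
Mean length of the 86J8WP fragments in nt (left) and log2 ratio of 86J8WP to 86V8WP counts (right) in each library. Points are libraries with their number, horizontal lines group means and bars 1 SD (n = 8 each); on the right both obese groups average 4.35 and RCD 3.73, and AM132 library 8 and RCD library 3 are the lowest of their groups.

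The members varied together from library to library. With the 26-nt fragment, over 24 libraries of all groups, Spearman's rho of log2 CPM was 0.97 for the 27-nt and 0.91 for the 23-nt fragment and lowest for the 28-nt fragment, at 0.66. Outside the members the closest tRFs were tRF-16-RPM830D (0.90), tRF-23-897PVP94Z (0.88) and tRF-16-S3M830E (0.85), and the closest miRNAs were miR-30b-5p (0.87), miR-1191 (0.78) and let-7f-1-3p (0.74). These are descriptions over points that share libraries, depth and group, and miR-1191 and let-7f-1-3p averaged only 7.41 and 6.23 CPM of miRNA.

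Markers of cell types were read from the miRNA table beside these differences. Summed hepatocyte miRNAs (5 of 5 listed) ran from 475762 to 542928 CPM in AM132, 400754 to 480598 CPM in AM608 and 351314 to 500958 CPM in RCD. Mesenchymal miRNAs (5 of 5) ran from 7689 to 12950 CPM in AM132, 9853 to 18894 CPM in AM608 and 11358 to 33809 CPM in RCD. Endothelial miRNAs (2 of 2) ran from 37450 to 50118 CPM in AM132, 41891 to 54154 CPM in AM608 and 32476 to 57674 CPM in RCD. Leukocyte miRNAs (3 of 5 in the table) had medians of 123 CPM in AM132, 171 CPM in AM608 and 189 CPM in RCD, erythroid miRNAs (2 of 3) 477, 553 and 711 CPM, and neuronal miRNAs (5 of 5) 442, 587 and 449 CPM, in the same order of groups. Medians of the hepatocyte sum were 494388 CPM in AM132, 435558 CPM in AM608 and 455022 CPM in RCD, and those of the mesenchymal sum 11336, 16132 and 14364 CPM. By their medians the leukocyte and erythroid sums had the order of the members' share of tRF counts, lowest in AM132 and highest in RCD. The marker sums are per miRNA counts, however. On that scale the members' medians were 577 in AM132, 923 in AM608 and 724 in RCD. The mesenchymal and neuronal sums had this order, lowest in AM132 and highest in AM608. The hepatocyte sum was highest in AM132. The endothelial sum had neither order and was lowest in RCD, with medians of 42067 CPM in AM132, 46949 CPM in AM608 and 34616 CPM in RCD. The part of these markers in the members' differences was not tested.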

How the data were processed

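The values are raw read counts per tRF and per miRNA as deposited by the authors, 8 libraries in each of 3 groups. Per the labels' protocols, miRNeasy RNA with a RIN above 8.4 was used, and 300 ng went into NEBNext small RNA libraries read on a NextSeq 500. FastQC is the only tool the submitters' processing notes name. No source used here gives the aligner, the genome build or the rule that assigns reads to tRFs, and that rule could move counts between fragments that differ by 1 base. Adapter ligation in this kit needs a 5′ phosphate and a 3′ hydroxyl, and tRFs that lack either may be undercounted.

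Each tRF name encodes its sequence; all 8456 were decoded and encoded back without a difference. Counts of tRFs under 30 nt were also summed over families that share their first 15 bases (2308 families). Single tRFs and families were each tested with edgeR 4.0.16 in R 4.3.3 (robust quasi-likelihood, TMM, filterByExpr, group as the only term, all 24 libraries), with Benjamini-Hochberg adjustment over the table and a threshold of 0.05. An SE is the absolute log2 fold change over the square root of F. Mean lengths and log2 family ratios were compared by exact permutation. In an alternative setting, the new permutation p was adjusted together with the unchanged p-values of the other tests from all libraries. Alternatives were other scalings and filters, DESeq2 1.42.0, limma 3.58.1 (voom), only the 2 groups compared, a replicate block and leaving out each library. The scripts were tested on simulated data. Libraries of a group differed by more than sampling noise in all 84 pairs (chi-square per degree of freedom at least 1.88). Named fragments are the 5 most abundant members and every member called, and the 10 most abundant other families. For likeness, the 3 tRFs and 3 miRNAs with the highest Spearman's rho are named. Members and lists were chosen with earlier results of these data known. Planned tests of tRNA-Glu(CTC) gave no value, and the ratio to the 86V8WP family took the place of the ratio between the 2 isoacceptors after the data had been seen.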

Additional observations from a re-analysis of the deposited data

Results flagged for a closer look

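Groups of 8 values were checked with Dixon's 95% critical value (gap to the nearest library over the whole range). Chance gives about 1 in 20 for independent groups. The groups here share fragments and libraries, so that rate is no reference for them. In 7 of the 51 groups checked, 1 library lay farther from the rest than the critical value allows. AM132 library 8 was the lowest in 5 of them: 2.13% of tRF counts in the summed members (next library 11.1%), 265 members' counts per 1000000 miRNA counts (next 553), 35083.5 CPM of the 86J8WP family, 4203 CPM of the 27-nt fragment and 2851 CPM of the 29-nt fragment. The ratio of 86J8WP to 86V8WP was 6.54 in RCD library 3, against 12.3 in the next library of that group. The 18-nt fragment was highest in AM132 library 3, at 425 CPM, against 249 CPM in the next.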

How the results depend on the processing

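The lower 86J8WP family level in AM132 against RCD kept its direction under all 34 alternatives and its call under 24. It was lost with library totals (-0.66, adjusted p = 0.0623), miRNA counts as library size (-0.36, 0.197), limma voom (-0.82, 0.0711), only the 2 groups compared (-0.85, 0.0737) and 5 libraries left out singly (-0.79 to -0.69). With each of the 24 libraries left out in turn, the family's log2 fold change ran from -0.93 to -0.69. Whether replicate numbers pair the samples was not settled. Of 24 same-numbered pairs, 13 correlated above 0.1 (median 0.17, from -0.30 to 0.49), and differently numbered pairs were not computed for comparison. With a replicate block the family call was lost (-0.75, edgeR adjusted p = 0.111) and 3 members were called. The 26-nt fragment then gave -0.80 and was not called (edgeR adjusted p = 0.0612). The count of 7 members was 4 with library totals, 2 with miRNA counts as library size, 4 with limma voom, and 4 to 9 with 1 library left out. In AM132 against AM608 the count of 0 became 2 without a filter (0 with every library left out). In AM608 against RCD it became 1 with DESeq2, 1 with only the 2 groups, 3 without both doubted libraries and 0 to 2 with 1 library left out. The share of all tested tRFs called in each of these settings is not given, so a changed count is not a result about the members alone. The cause was not tested in any of these.

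Some differences that were not called changed sign. In AM608 against RCD these were the family with miRNA counts as library size (0.020), the 27-nt fragment with library totals (0.019), miRNA counts (0.17), no filter (0.16) and leave-one-out (-0.20 to 0.044), and the 28-nt fragment with miRNA counts (0.16) and no filter (0.13). The 29-nt fragment ran from -0.019 to 0.24 with 1 library left out and gave -0.045 without both, and the 18-nt fragment ran from -0.50 to 0.039. In AM132 against RCD the 29-nt fragment gave 0.019 with miRNA counts as library size, against -0.45 with TMM.

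Leaving out both AM132 library 8 and RCD library 3, a choice made with the data in view, moved the mean length and ratio. The mean length differed by 0.0021 nt between AM132 and AM608 (leave-one-out -0.027 to 0.0021), by 0.10 nt between AM608 and RCD (0.051 to 0.10) and by 0.10 nt between AM132 and RCD. The log2 ratio differed by 0.13 between AM132 and AM608 (leave-one-out -0.11 to 0.13; 0.011 with filtered fragments) and by 0.61 between AM132 and RCD (adjusted p = 0.0350; leave-one-out 0.47 to 0.76). The higher ratio in AM608 than in RCD passed in all 19 alternatives, and the lower 86V8WP level in AM132 than in RCD in all 34.

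The minor ends limit what can be read, with counts per library as low as 1 at 18 and 19 nt. For tRNA-Glu(CTC) no alternative was run.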
